A study of Mus musculus with 167 samples.

Results

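Dlk1, Rtl1, Meg3, Rian, Mirg, Igf2, H19, Peg3, Mest and Plagl1 are imprinted genes, and their RNA was followed here in asbestos-induced mouse tumours. The 10 genes were taken by name out of 36118 genes in the count table. They were picked because Dlk1 and Rtl1 had been called higher in mice of short survival within strains by 1 of the tools used, so the survival difference within strains is described below and not tested. Count rows were present for 6 of them (Dlk1, Rtl1, Igf2, Peg3, Mest and Plagl1), while Meg3, Rian, Mirg and H19 were not analysed here. These 4 are long non-coding RNAs, a class of which the table holds 51 of 10150 annotated genes.

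An imprinted gene is read mainly from the copy inherited from one parent, because methylation laid down in the egg or sperm marks a control region and is kept through later cell divisions. Dlk1 and Rtl1 sit in one imprinted cluster in which the paternal copy is read into these coding genes and the maternal copy into Meg3, Rian and Mirg. Igf2 and H19 form another such pair, with Igf2 paternal and H19 maternal, and Peg3, Mest and Plagl1 are each read from the paternal copy. Many of these genes are active in the fetus and placenta and fall silent in most adult tissues.

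The study measured 167 tumours of 119 mice by RNA sequencing. The mice came from 35 strains, each made by mating males of a Collaborative Cross (CC) inbred strain with female MexTAg mice, which carry the large T antigen of simian virus 40 under the mesothelin promoter, active in mesothelial cells. The paternal copy of an autosomal gene in these mice is therefore that of the CC strain. Every mouse received 2 injections of 3 mg of crocidolite asbestos into the abdominal cavity and no other treatment, and the labels put 83 mice in the group above median survival and 36 mice, with 52 of the 167 tumours, in the group below it. The labels give neither age nor sex of the mice, and every library came from a tumour. The mouse was the replicate: counts of the tumours of a mouse were summed, and 35 mice gave more than 1 tumour (83 tumours, at most 6 from a mouse). Both classes occurred in 13 strains (35 mice above and 22 below). In the other 22 strains every mouse was of one class, with 48 mice above in 16 strains and 14 mice below in 6 strains.

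Library totals ran from 11138491 to 35399287 counts, with a median of 22539831. Levels are given in CPM, the counts of a gene scaled to one common library total, with library sizes scaled by the trimmed mean of M values (TMM). In whole tumours, fewer cells of a type and less RNA per cell cannot be told apart. The mesothelial marker Msln was detected in all mice, at 0.625 to 1172 CPM. In 17 libraries of 16 mice a list of genes of another organ took more than 1% of counts, and in 7 strains (25 mice) every library held more than 2 CPM of Umod, a gene of kidney tubules. Of 162 libraries compared on 300 genes that mark strains, 9 libraries of 9 mice resembled another strain more than their own by over 0.1 in correlation. In the clearest of them, the first tumour of mouse MEE-A3, the correlation was 0.963 with strain CC044 and −0.20 with its own strain. For the spread between tumours, the test of mice within strains and the correlation of Dlk1 with Rtl1, values are also given without them.

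On GRCm38 the cluster of Dlk1 lies on chromosome 12 in the order Dlk1 (chr12:109452823-109463336, plus strand), Meg3 (chr12:109541001-109571726, plus), Rtl1 (chr12:109589193-109600330, minus), Rian (chr12:109603940-109661716, plus) and Mirg (chr12:109729764-109749460, plus), so that Dlk1 and Rtl1 are 125.9 kb apart. Igf2 (chr7:142650766-142666816, minus) and H19 (chr7:142575529-142578143, minus) are 72.6 kb apart on chromosome 7. Peg3 lies elsewhere on chromosome 7 (chr7:6703892-6730431, minus), Mest on chromosome 6 (chr6:30723547-30748465, plus) and Plagl1 on chromosome 10 (chr10:13060504-13131694, plus). Of the 6 genes with counts, all are annotated as protein coding.

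Rtl1 is covered on its other strand by a transcript read from the maternal copy, which is cut into microRNAs that match Rtl1 RNA over their full length. RefSeq (GRCm38.p6) places 13 mature microRNAs inside the span of Rtl1, of which 11, from 6 hairpin genes, are on the opposite strand, and the reverse complement of each of the 11 was found in the annotated Rtl1 transcript. One from each of 5 hairpins is shown, 5′ to 3′, with the seed (bases 2 to 8) in capitals, because these sequences show what an antisense read over Rtl1 would carry.
miR-431-5p: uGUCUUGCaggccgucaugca
miR-433-3p: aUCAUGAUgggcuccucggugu
miR-127-3p: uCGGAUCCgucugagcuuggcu
miR-434-3p: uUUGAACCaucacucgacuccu
miR-136-5p: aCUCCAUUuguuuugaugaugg
The 5 seeds are all distinct. The microRNAs themselves were not measured by these libraries of polyadenylated RNA. The library kit keeps the strand, per the labels, but whether counting used it is not given, so Rtl1 reads and reads of its antisense transcript cannot be told apart. Igf2 likewise overlaps Gm49394 and Igf2os, and Mest overlaps Copg2 and Gm44296.

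ZFP57, a zinc finger protein that keeps methylation on imprinted control regions, binds the methylated hexamer TGCCGC. This hexamer was searched on both strands of RefSeq promoters (250 bases before to 50 after each start, GRCm38.p6), with no overlapping motif searched, and 11.6% of 32851 promoters held it. A promoter entry was found for 8 of the 10 genes (14 promoters in all), and 5 of the 14, from Mest, Plagl1, Igf2 and Meg3, held the hexamer. Among the 5 are Mest promoters that start at 30737800 and 30737803, overlap almost fully and hold the same 2 matches. The same sites are thus counted more than once in the 5 of 14. The promoters of Dlk1, Plagl1 and Mest are shown because these genes took part in most of the correlated pairs described below. Capitals mark TGCCGC or its reverse complement.
Dlk1, chr12:109452573-109452872, plus strand: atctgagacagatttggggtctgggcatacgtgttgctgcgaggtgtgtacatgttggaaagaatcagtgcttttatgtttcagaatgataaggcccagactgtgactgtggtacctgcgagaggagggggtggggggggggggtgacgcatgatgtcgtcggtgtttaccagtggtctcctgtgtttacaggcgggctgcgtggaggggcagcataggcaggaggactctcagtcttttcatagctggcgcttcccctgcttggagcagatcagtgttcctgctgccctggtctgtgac
Plagl1, chr10:13090582-13090881, plus strand: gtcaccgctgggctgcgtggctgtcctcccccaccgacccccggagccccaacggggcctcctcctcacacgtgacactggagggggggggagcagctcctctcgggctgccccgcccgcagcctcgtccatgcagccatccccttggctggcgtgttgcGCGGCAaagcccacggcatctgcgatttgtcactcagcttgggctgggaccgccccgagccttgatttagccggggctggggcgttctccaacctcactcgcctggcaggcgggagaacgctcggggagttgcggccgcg
Mest, chr6:30737800-30738099, plus strand: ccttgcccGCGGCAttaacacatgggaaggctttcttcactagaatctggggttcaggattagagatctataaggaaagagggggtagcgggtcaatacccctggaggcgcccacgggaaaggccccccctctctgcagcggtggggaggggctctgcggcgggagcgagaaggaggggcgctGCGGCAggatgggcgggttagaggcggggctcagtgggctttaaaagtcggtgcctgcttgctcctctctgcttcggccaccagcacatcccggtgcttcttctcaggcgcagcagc
The Mest promoter shown held 2 matches, that of Plagl1 held 1 and that of Dlk1 none. Another Mest promoter, chr6:30733256-30733555, held none. A match is a description of these letters and not a measured binding site.

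Dlk1 encodes a transmembrane protein related to Notch ligands that is released from the surface of fetal and progenitor cells and keeps fat cell precursors from differentiating. Over the 119 mice its level was 0 CPM in the lowest, 10.7 CPM in the median and 5175 CPM in the highest mouse. The highest mouse, LOX-F4, alone held 42.3% of the summed Dlk1 level of all mice, and the next was CC060-B1 at 837 CPM. Dlk1 was at 0 counts in 3 mice, LOX-E4, CC040-D3 and BOON-I2, which allows up to 0.180, 0.213 and 0.210 CPM (3 counts over the scaled library size, counting error only). The 7 lowest mice in Dlk1, at 0 to 1.25 CPM, all came from the 17 libraries with the highest numbers in their titles. These libraries are of 16 mice of 12 strains, 8 of each class, and their median total was 16586588 counts against 22820314 in the others. Dlk1 ran from 0 to 118 CPM in these mice (median 2.98) and from 1.39 to 5175 CPM in the other mice (median 12.7), while the medians of Rtl1 were 0.443 and 0.404 CPM. What the numbers in the titles stand for is not stated, and their part in the Dlk1 levels was not tested. LOX-F4 and LOX-E4 are of one strain and one class, so the extremes of Dlk1 occurred in the same group. The SD of log2 Dlk1 over mice was 2.88, larger than that of 99.4% of 13045 genes, against 0.64 for the median gene.

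Rtl1 is a gene derived from a retrotransposon that is needed in the blood vessels of the placenta. It ran from 0 to 13.5 CPM with a median of 0.404 CPM, and the highest mouse was CC046-H2. Rtl1 rested on few reads: the median library held 9 counts, 91 of 167 libraries held fewer than 10, and 5 held none. By mouse it was at 0 in LOX-E4, TAS-I1, TAS-J2 and PUB-I1, with limits of 0.153 to 0.258 CPM.

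Igf2 encodes a fetal growth factor that signals through the IGF1 receptor, and ran from 0.120 to 382 CPM with a median of 5.79 CPM. Mouse LAT-D2 was the highest and BOON-I2 the next, at 299.6 CPM. Peg3, a zinc finger gene expressed in brain, placenta and adult stem cells, ran from 0.0992 to 331 CPM with a median of 3.44 CPM. Its highest mice, TAS-J2 at 331 CPM and BOON-I2 at 327 CPM, stood far above the upper quartile of mice, at 10.3 CPM.

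Mest, which encodes a membrane enzyme of the hydrolase fold that marks mesoderm and growing fat tissue, ran from 0.599 to 979 CPM with a median of 23.4 CPM. The highest were CC021-C2 and then GIT-G2 at 622 CPM, both mice below median survival from strains with Umod in every library. Plagl1, a zinc finger transcription factor whose known targets include other imprinted genes, ran from 0.313 to 219 CPM with a median of 8.88 CPM. Per kilobase of exon sequence, the median level was highest for Mest (5.94 CPM per kb), followed by Dlk1 (1.89), Plagl1 (1.14), Igf2 (1.01), Peg3 (0.258) and Rtl1 (0.0636). The SDs of log2 levels of these 5 genes over mice were between 1.75 and 2.33, each larger than that of at least 93.4% of genes.

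**Figure D1:**
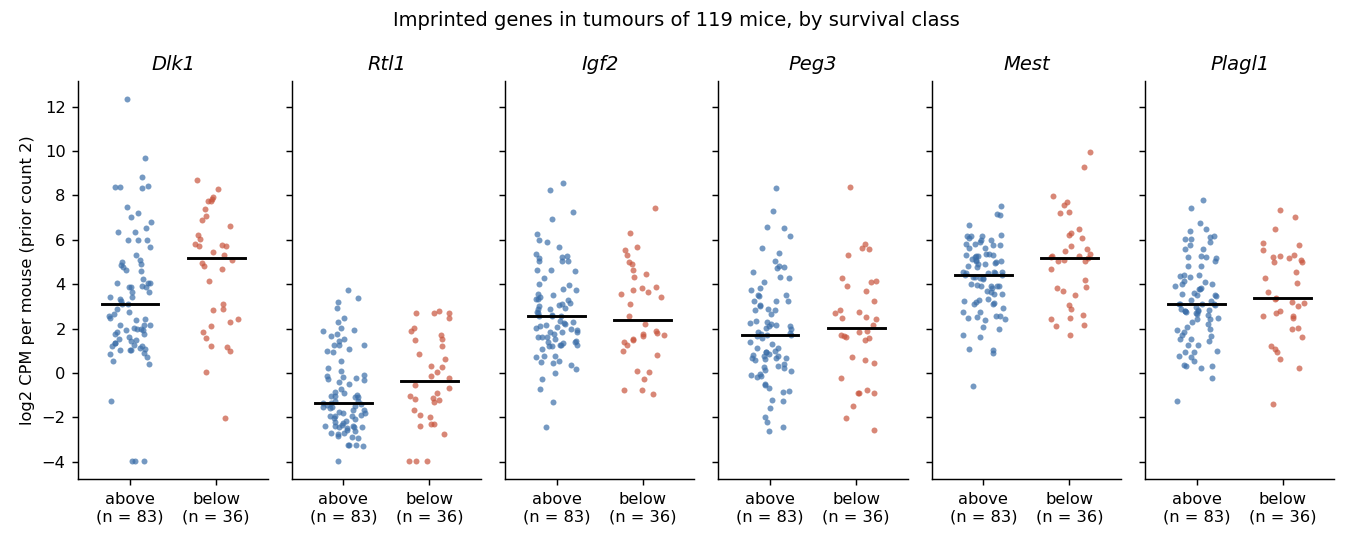
Level of each of the 6 imprinted genes in every mouse (log2 CPM with a prior count of 2), with 83 mice above and 36 below median survival; points are mice and bars are medians. Each gene spreads over many doublings within both classes, and Dlk1 reaches from mice with no count to LOX-F4 at 5175 CPM.

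The marker genes of the extreme mice differed widely. LOX-E4, at 0 in Dlk1 and Rtl1, was also the lowest of 119 mice in Igf2 and Mest, in the summed mesothelial list (9.34 CPM, median of mice 315), in the fibroblast list (501 against 18142 CPM) and in the list of cartilage and bone genes (2.93 against 96.95 CPM). It is 1 of the 9 mice with a library nearer to another strain. BOON-I2, at 0 in Dlk1 and second in Igf2 and Peg3, ranked 3 in the skeletal muscle list (21073 against 47.4 CPM), 4 in the adipocyte list and first in the nerve list. LOX-F4, highest in Dlk1, ranked 116 in fibroblast genes (1944 CPM) and 16 in mesothelial genes (1601 CPM). The same mouse ranked 8 in acinar genes of the pancreas (119.6 CPM, median of mice 14.5), 11 in genes of steroid-making cells (43.8 against 12.6 CPM) and 13 in genes of the male tract (472 against 0.168 CPM). Of its 43.8 CPM in steroid cell genes, 37.8 CPM were of 1 gene of the 8 in that list, Cyp21a1, in which LOX-F4 was the highest mouse. PEF2-A2, highest in Plagl1 and eighth in Dlk1, ranked first in cartilage and bone genes and second in fibroblast genes. The part of these cell types in the levels was not tested.

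Whether the imprinted genes differed between strains was asked where a strain had at least 3 mice, which left 25 strains. In edgeR's quasi-likelihood test over strains, with Benjamini-Hochberg adjustment over 20687 genes, 69% of genes passed an adjusted p of 0.05, and 5 of the 6 imprinted genes did: Igf2 (adjusted p = 0.000134), Mest (0.000276), Peg3 (0.000598), Dlk1 (0.0120) and Plagl1 (0.0358). Rtl1 did not pass (adjusted p = 0.383). The 5 of 6 is close to the share of all genes. On simulated data this test passed more unchanged genes than its threshold allows, so its adjusted p-values may be too small. With limma-voom, a test on log values, 50.4% of genes and 2 of the 6 passed, Mest (adjusted p = 0.00841) and Plagl1 (0.0312). The call of Dlk1 was lost without mouse LOX-F4 (adjusted p = 0.105) and that of Mest without the strains with Umod in every library (0.145). That of Plagl1 was lost in edgeR with the first tumour of each mouse (0.0561), without the libraries with more than 1% of another organ (0.0613) and in strains of at least 4 mice (0.134).

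Strain accounted for less of the spread of Dlk1 and Rtl1 than of most of the 13045 genes compared. Those genes had a mean of at least 1 log2 CPM. Rtl1, with a mean of −0.68 log2 CPM, lay below that level. The part of its few counts in its low share was not tested. Differences between strains held 21.1% of the variance of log2 Dlk1 and 15.7% of that of Rtl1, where strain takes 23.5% of the degrees of freedom and the median gene had 37.05%. Only 4.84% of genes had a lower share than Dlk1 and 0.782% a lower share than Rtl1. The shares for Mest (38.7%), Plagl1 (36.1%) and Igf2 (35.0%) were near that of the median gene, and that of Peg3 was 27.2%.

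MEE had the highest mean Dlk1 of the strains with at least 3 mice, at 7.87 ± 0.71 log2 CPM (SD, n = 4; 118, 228, 331 and 335 CPM). This SD is of counts summed per mouse. The tumours summed were far apart in MEE-A3 (4.29 and 712 CPM) and MEE-B1 (2.84 and 594 CPM). The mean of MEE without the library that resembled CC044, at 4.29 CPM, was not determined. MEE was followed by CC060 at 6.70 ± 2.92 (n = 3; 14.6, 92.7 and 837 CPM), TAS at 5.31 ± 1.68 (n = 6) and Piping at 5.25 ± 2.97 (n = 3). The 4 ranges overlapped: the highest mice of CC060, TAS and Piping, at 837, 137 and 216 CPM, exceeded the lowest of MEE, which lay above the median mouse of each (92.7, 52.9 and 64.8 CPM). The lowest were CC035 at 2.63 ± 2.91 (n = 3), CC053 at 2.36 ± 0.93 (n = 6) and CC040 at 2.03 ± 4.51 (n = 4; 0 to 50.8 CPM). Neighbours in this order did not differ beyond their spread.

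The order of strains differed between genes. MEE, first in Dlk1, ranked 4 in both Rtl1 and Igf2 but 21 of 25 in Peg3 and 17 in Mest. CC040 had the lowest mean of Dlk1, Igf2, Peg3, Mest and Plagl1, but ranked 3 in Rtl1, at 0.70 ± 1.29 log2 CPM (n = 4; 0.758 to 5.43 CPM). CC035 ranked between 22 and 25 in all 6 genes. GIT, a strain with Umod in every library, had the highest means of Igf2, Peg3 and Mest, and Piping, another such strain, those of Rtl1 and Plagl1.

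**Figure D2:**
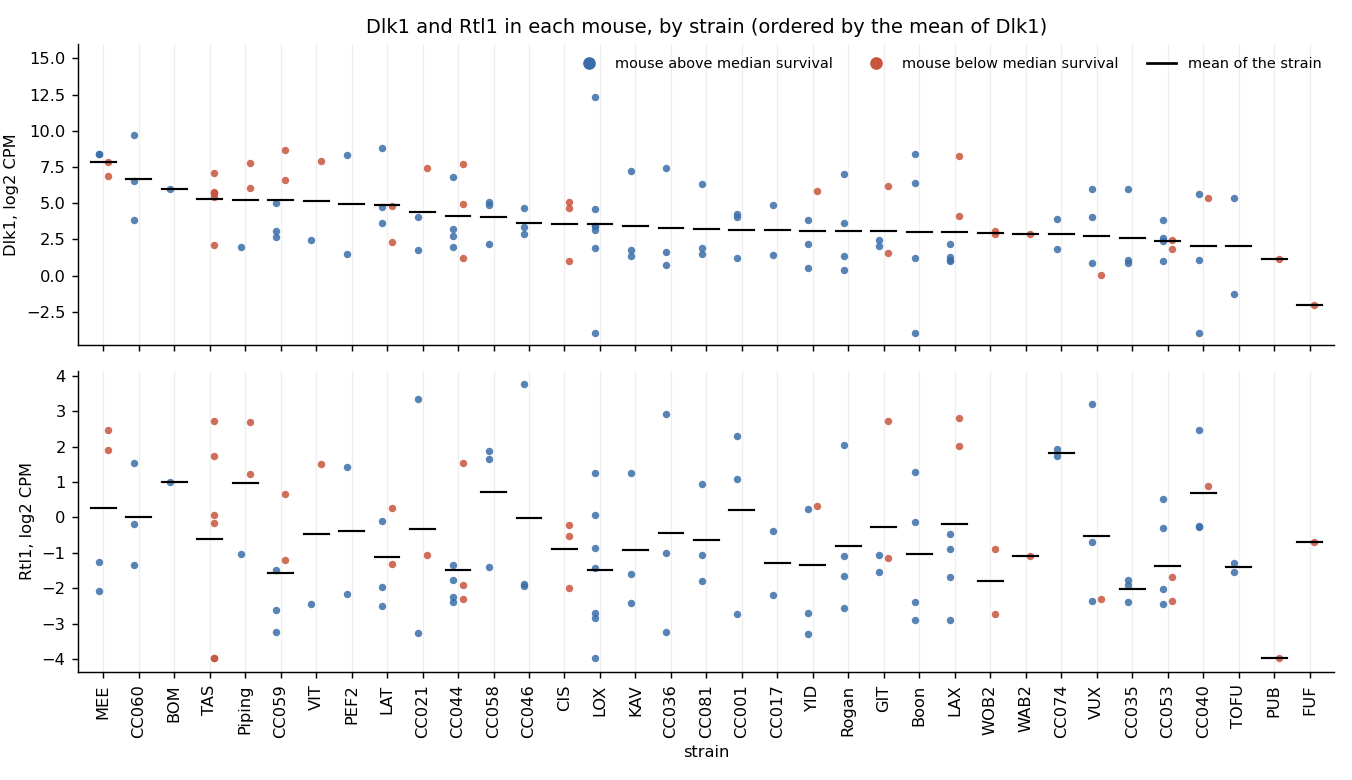
Dlk1 (top) and Rtl1 (bottom) in each mouse, as log2 CPM with a prior count of 2, by strain and ordered by the strain's mean Dlk1; points are mice coloured by survival class and bars are strain means. MEE stands highest in Dlk1 with 4 mice between 118 and 335 CPM, and the spread within most strains is as wide as that between them.

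Separate tumours of one mouse differed widely. Over the 35 mice with several tumours (83 tumours), the SD of log2 Dlk1 within a mouse was 1.72 (log2 CPM with a prior count of 2). In 12 mice the highest tumour exceeded the lowest by more than 4-fold on that scale, and in 15 mice by plain CPM. Without the libraries nearer to another strain (72 tumours of 30 mice) the SD was 1.40, and 7 mice by the first scale and 10 by the second had such a range. The largest gap was in MEE-B1, with tumours at 2.84 and 594 CPM. MEE-A3 had tumours at 4.29 and 712 CPM, and the lower one is the library that resembled CC044. The 3 tumours of Boon-H2 held 3.57, 49.3 and 192 CPM, while the 3 of CC059-E2 were alike at 383, 405 and 522 CPM.

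Rtl1 had a smaller SD within a mouse on the same log2 scale (1.29), with 9 mice over 4-fold on it and 11 by plain CPM. The prior count narrows the log2 range of a gene of few counts, and its part in the smaller SD was not tested. The widest range was in CC074-B3, whose 6 tumours held 17.8, 0.949, 0.381, 0.349, 0.341 and 0.0360 CPM. The tumour highest in Rtl1 was also the highest of the 6 in Dlk1, at 6.83 CPM. In Rogan-C3 one tumour held 7.29 CPM of Rtl1 and 228 CPM of Dlk1 and the other 0.229 and 13.4 CPM, and the latter is among the libraries nearer to another strain. In MEE-B1 Rtl1 was at 0 in the tumour with low Dlk1 and at 0.312 CPM in the other. For Igf2, Peg3, Mest and Plagl1 the SD within a mouse was 1.35, 1.33, 1.03 and 1.15, with 12, 10, 8 and 12 mice over a 4-fold range of log2 CPM. Without the libraries nearer to another strain the SD was 1.13 for Rtl1 and 1.14, 1.01, 0.79 and 0.90 for these 4 genes, with 9, 6, 4 and 8 mice over that range.

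**Figure D3:**
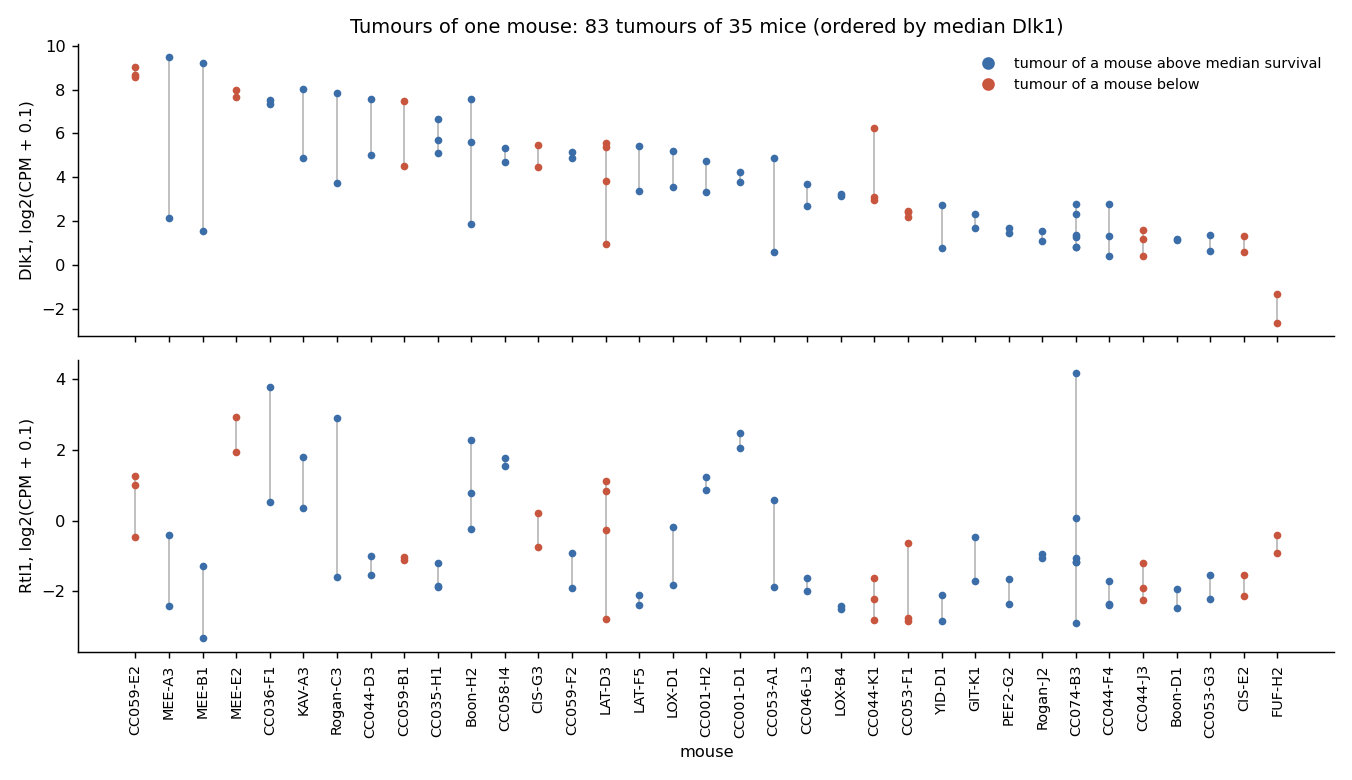
Dlk1 (top) and Rtl1 (bottom) in each of 83 tumours of the 35 mice with more than 1 tumour, as log2 of CPM plus 0.1, ordered by the median Dlk1 of the mouse; points are tumours coloured by the survival class of the mouse and lines join tumours of one mouse. MEE-A3 and MEE-B1 each hold a tumour with Dlk1 at 2.84 or 4.29 CPM and another at 594 or 712 CPM.

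Mice of one strain were compared against the spread between tumours of one mouse in 10 strains with at least 2 such mice (25 mice, 58 tumours). In edgeR's test 63.3% of 20305 genes passed, and 5 of the 6 imprinted genes did: Igf2 (adjusted p = 0.000800), Rtl1 (0.00183), Dlk1 (0.00371), Plagl1 (0.00748) and Peg3 (0.0441). Mest did not pass (adjusted p = 0.0866). With limma-voom 55.5% of genes passed, and of the 6 only Rtl1 (adjusted p = 0.00582), Plagl1 (0.0302) and Igf2 (0.0499). Without the libraries nearer to another strain (40 tumours in 7 strains) all 6 passed in edgeR, Mest with an adjusted p of 0.000321. In that setting 13384 of 19838 genes passed, so passing was common among all genes. Rtl1 thus passed between mice of a strain in both tools and between strains in neither. Differences between mice held 60.3% of the variance of Rtl1 among tumours of a strain and 50.1% of that of Dlk1, against 56.4% for the median gene and 31.2% of the degrees of freedom.

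The survival contrast within strains is the one that chose Dlk1 and Rtl1, and its values are a description. In the 13 strains with both classes, Dlk1 was 5.95 CPM in the median mouse above median survival (0 to 453 CPM, n = 35) and 60.9 CPM in the median mouse below it (0.972 to 419 CPM, n = 22), and the classes overlapped. Rtl1 was 0.280 CPM above (0.0386 to 10.2 CPM) and 1.35 CPM below (0.129 to 6.95 CPM). The mean below was higher than the mean above in 9 of 13 strains for Dlk1, 10 for Rtl1, 8 for Igf2, 9 for Peg3, 9 for Mest and 8 for Plagl1.

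Within strains, edgeR's log2 difference, below minus above, was 2.37 ± 0.78 (SE) for Dlk1, 2.05 ± 0.62 for Rtl1, 1.36 ± 0.53 for Mest, 1.06 ± 0.51 for Plagl1, 0.50 ± 0.65 for Peg3 and 0.19 ± 0.63 for Igf2. In edgeR 0% of 16481 genes passed the adjusted threshold in this contrast (1882 had an unadjusted p under 0.05), as also in limma-voom (0, with 1400). DESeq2, the tool behind the choice, called 65 genes, or 0.394%, with 50 higher and 15 lower below median survival. Its adjusted p was 0.0198 for both Dlk1 and Rtl1, just inside the threshold, and 0.176 for Plagl1, the next outside it, while that of Mest was not given by the tool. Without the libraries of the 17 highest numbers the edgeR difference was 3.06 ± 0.80 for Dlk1 and 2.53 ± 0.62 for Rtl1. These values chose the genes and carry no weight of their own.

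The estimate for Dlk1 was larger in the strains with Umod in every library. In the 4 strains of both classes with Umod in every library (CC021, GIT, LAX and Piping), the 9 mice above held 1.99 to 16.5 CPM of Dlk1 with a median of 3.86 CPM. The 7 mice below held 2.91 to 314 CPM with a median of 74.2 CPM. In these 16 mice the log2 difference was 4.76 ± 0.80 (SE), and in the other 9 strains (41 mice) it was 0.97 ± 0.87. For Rtl1 the same estimates were 3.09 ± 1.13 and 1.55 ± 0.70. The difference between these groups of strains was not tested, and the part of Umod or kidney tissue in it was not tested. Within each of these 4 strains the library numbers in the titles lie close together. Whether their libraries were handled together is not stated, so Umod, strain and any shared handling cannot be told apart.

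Dlk1 and Rtl1 did not always differ the same way within a strain. In LAX, Dlk1 was 1.99 to 4.43 CPM in 4 mice above and 17.5 and 314 CPM in 2 below. There Rtl1 was 0.0710 to 0.657 CPM above and 4.03 and 6.95 CPM below. One of the mice above, LAX-E2, had 22.1% of its counts in hepatocyte genes. The share of all genes that separate the classes of a strain was not determined. In MEE, both mice above (331 and 335 CPM) held more Dlk1 than both below (118 and 228 CPM), while for Rtl1 both mice below (3.71 and 5.52 CPM) exceeded both above (0.174 and 0.352 CPM). By tumour, Dlk1 in the mice above was 2.84, 4.29, 594 and 712 CPM, on both sides of the mice below. The tumour at 4.29 CPM is the library that resembled CC044. In CC021 the mouse below was higher in Dlk1 (170 against 3.29 and 16.5 CPM), but its Rtl1 of 0.418 CPM lay between the mice above (0.0411 and 10.2 CPM). VUX and CC053 had the lower mean below median survival in both genes, as LAT and MEE had in Dlk1 alone and CC021 in Rtl1 alone. In VUX, Dlk1 was 0.972 CPM in the mouse below and 1.81 to 63.1 CPM in the 3 above, and Rtl1 was 0.139 against 0.132 to 9.21 CPM, and the mouse below is of the 17 libraries with the highest numbers. In CC053 the log2 difference was −0.33 for Dlk1 and −0.96 for Rtl1.

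The mice of the 22 strains with a single class took no part in the choice of genes, but there class and strain cannot be told apart. In these 62 mice, Dlk1 was 10.6 CPM in the median mouse above median survival (0 to 5175 CPM, n = 48) and 17.1 CPM in the median mouse below it (0.185 to 137 CPM, n = 14). The fitted log2 difference, below minus above, was −2.45 ± 1.10 (SE; adjusted p = 0.231 in edgeR), opposite in sign to the estimate within strains and to the order of the medians. Without LOX-F4 it was −0.84 ± 0.81 (adjusted p = 0.633), and without the libraries of the 17 highest numbers −2.47 ± 1.17 (0.218). Rtl1 was 0.376 CPM in the median mouse above (0 to 13.5 CPM) and 0.516 CPM below (0 to 6.51 CPM), with a log2 difference of −0.50 ± 0.66 (adjusted p = 0.760 in edgeR). Without the same libraries it was −1.22 ± 0.72 (0.335).

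None of the 6 imprinted genes passed in this comparison, while 770 of 17374 genes (4.43%) did, 608 higher and 162 lower below median survival. Mice were the replicates although class belongs to the strain here, and TAS gave 6 of the 14 mice below. With 1 value per strain 0 genes passed in limma (2105 had an unadjusted p under 0.05), and with limma-voom over mice 2 passed. For Igf2 the log2 difference was −1.26 ± 0.65 (SE; adjusted p = 0.317 in edgeR), for Plagl1 −1.15 ± 0.61 (0.330), for Mest 0.98 ± 0.40 (0.171) and for Peg3 0.90 ± 0.72 (0.566). The value of Peg3 rested on TAS-J2, without which it was −0.86 (adjusted p = 0.617). Without the libraries of the 17 highest numbers in their titles Peg3 passed at 2.06 (adjusted p = 0.0369), beside 942 of 17411 genes. That setting leaves out BOON-I2, a mouse above at 327 CPM of Peg3, and keeps TAS-J2, below at 331 CPM. The difference between this comparison and that within strains was not tested. All 8 hepatocyte genes and all 7 acinar genes passed in edgeR as higher below median survival here, and their part in the values of the imprinted genes was not tested. Hepatocyte genes took 14.7% of counts in TAS-I1 (below) and 3.60% in TOFU-C3 (above), and acinar genes 2.98% in TAS-H2 (below). Over all 119 mice the median hepatocyte level was 228 CPM above and 273 CPM below, and the acinar level 15.8 and 13.5 CPM. Whether the calls rested on single libraries was not determined. Without the libraries with more than 1% of another organ, 0.653% of 17611 genes passed, and the Dlk1 difference was −3.01 ± 1.33 (adjusted p = 0.342).

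**Figure D4:**
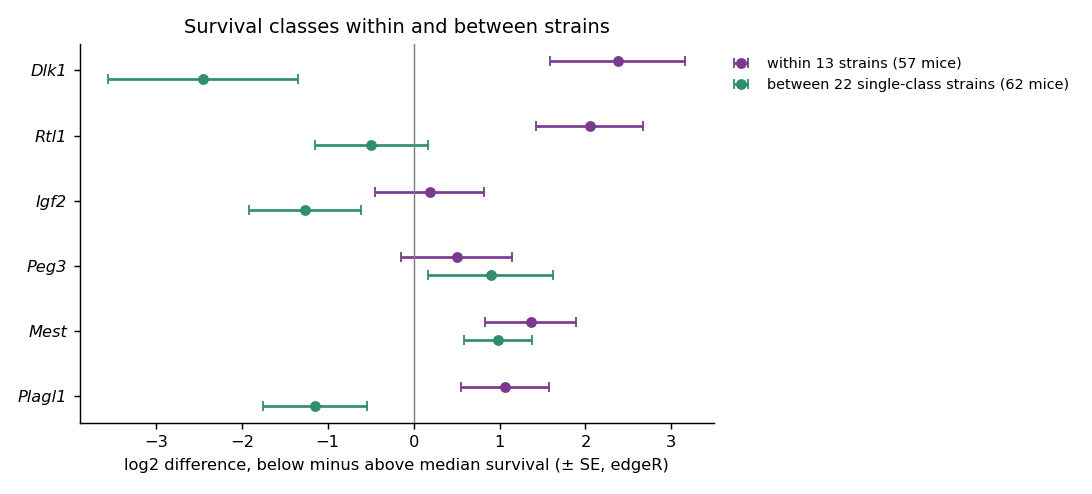
Log2 difference (below minus above median survival, ± SE, edgeR) of the 6 imprinted genes within 13 strains of both classes (57 mice) and between 22 single-class strains (62 mice). Dlk1 is 2.37 within strains and −2.45 between them, and Mest and Peg3 have positive estimates in both.

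Lists of related genes were taken alongside. Within strains, none of 34 other imprinted genes, 19 genes of the insulin-like growth factor (IGF) pathway, 18 Notch pathway genes and 14 regulators of imprinting passed. Their median log2 differences were 0.22, 0.30, 0.25 and −0.0065, against −0.013 over all genes tested. Between single-class strains 1 of 37 other imprinted genes passed, Slc38a4, which encodes an amino acid transporter of placenta and liver (2.26 ± 0.58 SE, adjusted p = 0.00906). Of 19 IGF genes 1 passed, Igfbp1, an IGF-binding protein made by the liver (3.28 ± 0.80, adjusted p = 0.00507). Both were lost without the libraries with more than 1% of another organ, where Slc38a4 was −0.37 (adjusted p = 0.832 in edgeR) and Igfbp1 2.34 (0.116). Neither passed in limma-voom (0.16, adjusted p = 0.959, and 0.51, 0.896) or in DESeq2 (−0.45, 0.696, and 1.99, 0.0745). No gene of 18 in the Notch list or of 16 regulators passed, and the 4 medians were −0.020, −0.036, −0.25 and −0.11, against −0.016 over all genes.

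Between strains, 28 of 41 other imprinted genes, 12 of 19 IGF genes, 12 of 19 Notch genes and 11 of 16 imprinting regulators passed in edgeR, beside 69% of all genes. The lowest p among the regulators were those of Zfp445, Trim28, Dnmt1 and Ctcfl, where Zfp445 and Trim28 act with ZFP57 and Dnmt1 copies methylation at cell division. Between mice of a strain 23 of 39 other imprinted genes, 17 of 19 IGF genes, 16 of 19 Notch genes and 10 of 16 regulators passed, beside 63.3% of all genes. Leading among the Notch genes there were Hes1, Notch4, Dlk2 (the close relative of Dlk1) and Notch2.

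Whether the cluster moved together was asked on log2 CPM per mouse with the mean of its strain and survival class taken off, which removes the contrast that chose the genes. This gave 37 groups of at least 2 mice, and the 11 mice alone in their group were left out. Dlk1 and Rtl1 were correlated, with Pearson r = 0.59 (95% interval 0.41 to 0.72) and Spearman's rho = 0.67, and a permutation p of 1e-05 for each, the smallest that 100000 permutations within groups can give (7.5e-05 adjusted over the 15 pairs of genes). Without the 2 mice farthest from the median of Dlk1, LOX-E4 and LOX-F4, r was 0.59. Among 12489 genes ranked by their correlation with Dlk1, Rtl1 came 9th, and Dlk1 came 3rd for Rtl1. The value was 0.57 without the libraries nearer to another strain, 0.59 without the strains with Umod in every library and 0.61 without the libraries of the 17 highest numbers.

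The cluster on chromosome 12 was not alone in this. Of the 15 pairs 6 passed (40%), and the other 5 joined genes on different chromosomes. At the least r that passed, 0.42, 4.24% of the pairs of these 6 genes with 12484 other genes were as strong in either direction, from 1.45% for Igf2 to 9.22% for Peg3. Plagl1 correlated with Igf2 (r = 0.53, rho = 0.51), Mest (0.47, 0.39), Dlk1 (0.47, 0.39) and Rtl1 (0.42, 0.36), and Igf2 with Mest (0.45, 0.42), with permutation p values adjusted over the 15 pairs of at most 0.0008 for r and 0.00497 for rho. Among genes ranked by r, 0.0881% came above Plagl1 for Igf2, 1.28% for Dlk1, 2.64% for Rtl1 and 2.79% for Mest, and 3.796% came above Igf2 for Mest. Over these mice Dlk1 and Rtl1 did not pass with Igf2 (0.13 and 0.17), Mest (0.18 and 0.21) or Peg3 (−0.14 and −0.18). Dlk1 with Igf2 passed without the libraries with more than 1% of another organ (r = 0.32, adjusted permutation p = 0.0479). Peg3 was in no pair that passed over the centred mice. Each of the 5 pairs kept its sign without the 2 mice farthest from the median of the first gene, with r between 0.36 and 0.48.

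**Figure D5:**
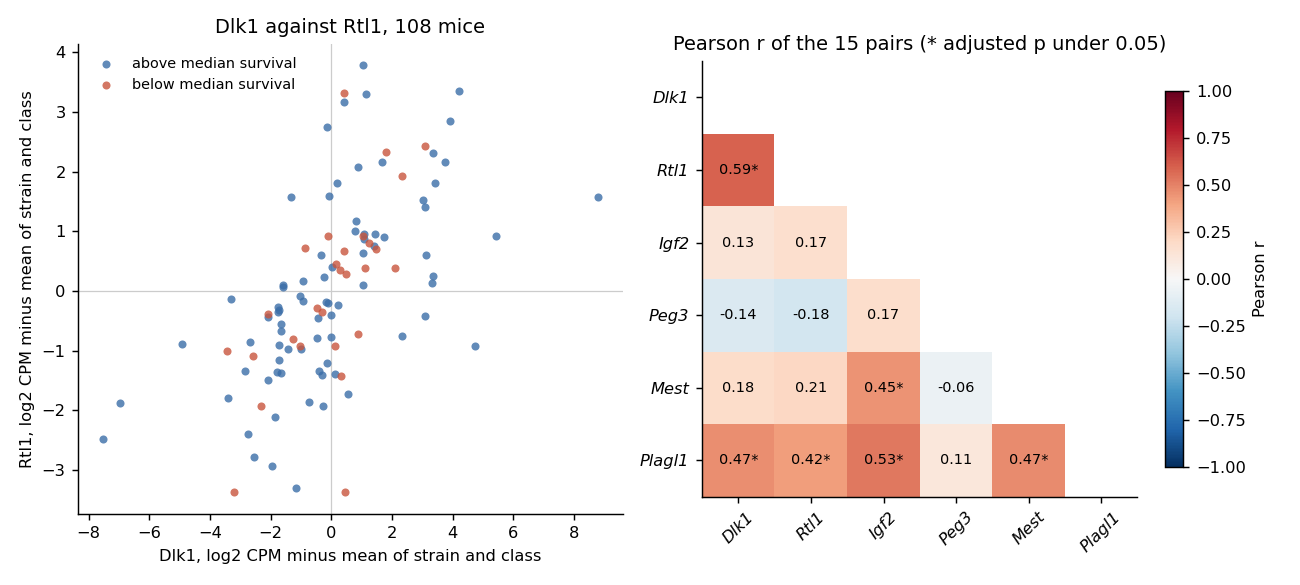
Left, Dlk1 against Rtl1 in the mice of 37 groups, each as log2 CPM minus the mean of its strain and survival class, coloured by class; right, Pearson r of the 15 pairs of imprinted genes over the same mice, with a star where the adjusted permutation p was under 0.05. Dlk1 and Rtl1 lie along one slope (r = 0.59), and the row of Plagl1 holds 4 of the 6 pairs that passed.

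The number of pairs that passed moved with the level. The share of all genes as strong was not determined in the settings that follow, so their counts are descriptions. Over all 119 mice with no mean taken off 9 passed, adding Dlk1 with Mest (r = 0.22, adjusted permutation p = 0.0289), Igf2 with Peg3 (0.25, 0.0113) and Peg3 with Plagl1 (0.26, 0.00894). Over the means of the 35 strains 3 did, and Dlk1 with Rtl1 was 0.34 (permutation p = 0.0480, adjusted 0.103). Over 83 tumours centred on their mouse 3 passed, among them Dlk1 with Rtl1 (r = 0.57, adjusted permutation p = 0.00075). The others were Dlk1 with Mest (0.50, adjusted permutation p = 0.00270) and Peg3 with Plagl1 (0.54, 0.0446), while Igf2 with Plagl1 was −0.08 (adjusted permutation p = 0.905). Without the libraries nearer to another strain (72 tumours), Dlk1 with Rtl1 was 0.40 (permutation p = 0.00472, adjusted 0.0708) and no pair passed. The mouse-level correlation of Dlk1 and Rtl1 thus had a counterpart among tumours of one mouse that depended in size on those libraries.

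The genes most like Dlk1 over the same mice, chosen by Pearson r among genes with a mean of at least 1 log2 CPM, were Efna4 (an ephrin ligand, r = 0.64), Tspan11 (a tetraspanin, 0.63), Tmem9 (0.63), Sox9 (a transcription factor of cartilage and of progenitor cells, 0.61) and Arhgef40 (0.61). For Rtl1 they were Mfap2 (a microfibril protein of the matrix, 0.60), Fam110b (0.59), Dlk1 (0.59), Efna4 (0.59) and Nfatc4 (a calcium-regulated transcription factor, 0.59). Efna4 stood in both sets. These are descriptions, and genes near one another in such a ranking share libraries and cell makeup.

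Of 26 other imprinted genes with enough reads, 20 pairs with one of the 6 genes passed the threshold adjusted over all such pairs, or 12.8%. At the least r that passed, 0.33, 13.5% of these pairs were as strong in either direction, close to 12.2% for the 6 genes with all of 13469 genes. The 4 of lowest p were Mest with Cdkn1c (r = 0.56, rho = 0.50), a maternally read inhibitor of the cell cycle, Plagl1 with Cdkn1c (0.59, 0.50), Mest with Grb10 (0.48, 0.47), an inhibitor of insulin and IGF signalling, and Rtl1 with Sgce (0.44, 0.41), each with an adjusted permutation p of at most 0.00208 for r. The following were singled out after their values were seen. Cdkn1c correlated with 5 of the 6 genes, all but Peg3, and Peg10, a paternally read neighbour of Sgce derived from a retrotransposon like Rtl1, correlated with Rtl1 (0.48), Dlk1 (0.45), Mest (0.42) and Plagl1 (0.37). In the cluster of Dlk1 itself, Begain, at the Dlk1 end, reached r = 0.36 with Rtl1 (adjusted permutation p = 0.0262) and 0.31 with Dlk1 (0.0623). By rank the values were 0.39 for Rtl1 (adjusted permutation p = 0.0109) and 0.44 for Dlk1 (0.00234). Dio3, at the other end, was at −0.07 with Dlk1 and 0.03 with Rtl1 (adjusted permutation p = 0.724 and 0.888).

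Marker lists were set against these genes over the same mice. Of 78 pairs of the 6 genes with 13 marker lists 9 passed. The share of all genes that pass with these lists was not determined, so whether the count is particular to the imprinted genes is not known. Dlk1 correlated with the summed level of the cartilage and bone list (Sox9, Acan, Col2a1, Bglap, Ibsp and Sp7; r = 0.63, rho = 0.62, adjusted permutation p = 0.00026), of which Sox9 and Acan were the most abundant and the other 4 had medians of 0.0617 to 1.21 CPM. Rtl1 correlated with the fibroblast list (0.48, rho 0.42) and the cartilage and bone list (0.46, 0.50), Mest with both (0.61 and 0.36) and Plagl1 with the fibroblast list (0.37).

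Peg3 correlated with the adipocyte list (r = 0.48, rho = 0.44), the skeletal muscle list (0.43, 0.38) and the list of steroid-making cells (0.32, 0.32), and the adjusted permutation p of r was at most 0.0317. Neither Dlk1 nor Rtl1 passed with the mesothelial list, where r was 0.04 for Dlk1 (adjusted permutation p = 0.930) and −0.30 for Rtl1 (0.0998). The part of these cell types in the correlations between the imprinted genes was not tested.

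Over all mice the summed level of the cartilage and bone list ran from 2.93 to 846 CPM above median survival (median 95.6) and from 10.52 to 483 CPM below it (median 113.4). The fibroblast list ran from 501 to 99269 CPM above (median 17194) and from 1567 to 68728 CPM below (median 21349), and the mesothelial list from 9.34 to 4741 CPM (median 351) and from 22.8 to 3540 CPM (median 265). Within strains, 4 of 4 tested cartilage and bone genes and 7 of 8 fibroblast genes had a positive estimate, with median log2 differences of 0.44 and 0.61, and none passed. In the single-class comparison 1 of 6 cartilage and bone genes passed, as lower below median survival, with a median of −1.13 for the list, and none of 8 fibroblast genes passed (median −0.23). In the other marker lists no gene passed within strains. Between single-class strains, beside the hepatocyte and acinar genes, 3 of 4 kidney, 2 of 5 intestinal and 2 of 9 skeletal muscle genes passed as lower below median survival, and none passed of 8 mesothelial, 7 adipocyte, 5 male tract, 4 nerve, 3 steroid cell and 1 islet genes. The cartilage and fibroblast medians were positive within strains and negative between single-class strains, as were the estimates of Dlk1. The other imprinted, IGF, Notch and steroid cell lists had medians of the same signs. The match was thus not particular to cartilage and fibroblast genes. The part of these cell types in the Dlk1 values was not tested.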

How the data were processed

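Tumour RNA libraries were made with a strand-specific mRNA kit, per the labels' protocols, and kallisto 0.46.1 and GRCm38 are named in the submitters' processing notes. The deposited table holds counts per Ensembl gene and tumour library, as whole numbers not normalized by the authors. Gene names and positions came from GENCODE vM21, which named 35825 of 36118 genes. Of the columns, 165 were joined to a sample and 2 to a mouse only, by name.

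Counts were summed per mouse and scaled by TMM. Tests used the quasi-likelihood F-test of edgeR 4.0.16 with its default filter on low counts (R 4.3.3), with limma 3.58.1 and DESeq2 1.42.0 as alternatives. P-values were adjusted by Benjamini-Hochberg over all genes, at 0.05. Log2 CPM used a prior count of 2. Correlations were tested with 100000 two-sided permutations within strain and class, and their 95% intervals come from Fisher's z with the degrees of freedom reduced by the number of groups. Marker lists were summed as CPM and taken as log2 of CPM plus 1. The scripts were tested on simulated data.

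The imprinted genes and all lists (other imprinted genes, IGF pathway, Notch pathway, imprinting regulators and 13 marker lists) were chosen with earlier results of these data known. All 10 imprinted genes were named, and of a list those that passed or, where over 4 passed, the 4 of lowest p. The labels do not say how tumours of a mouse were chosen.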

Additional observations from a re-analysis of the deposited data

Results flagged for a closer look

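Within strains of 4 to 10 mice, the highest or lowest mouse stood far from the others (gap over range above Dixon's 95% value) in 7 of 84 groups of gene and strain, where chance gives about 1 in 20.

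Mice with high values made up 5 of the 7. GIT-G2 held 6.50 CPM of Rtl1 beside 0.280 to 0.411 CPM in the other 3 GIT mice (gap over range 0.89). CC044-F2 stood apart from 6 other CC044 mice in 2 genes, with 2.84 CPM of Rtl1 beside 0.126 to 0.330 CPM (0.732) and 250.5 CPM of Mest beside 3.20 to 15.1 CPM (0.646), and it was also the mouse highest in Plagl1 among those below median survival, at 161.02 CPM. VUX2-B1 held 122 CPM of Igf2 beside 2.51 to 2.85 CPM (0.968). BOON-I2 held 327 CPM of Peg3 beside 0.570 to 1.69 CPM (0.837), with skeletal muscle genes at 21073 CPM.

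The other 2 were low. TAS-J2 held 4.23 CPM of Dlk1 beside 44.1 to 137 CPM in 5 other TAS mice (0.674), and had the highest Peg3 of all mice. LOX-E4 held 0.359 CPM of Peg3 beside 7.10 to 27.8 CPM in 6 other LOX mice (0.676). Its library was nearer to another strain.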

How the results depend on the processing

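Among the counts of all genes, of imprinted genes and of pairs that passed, 70 of 84 values under an alternative stayed within 1.5 times. A count of 0 in both settings was taken as unchanged, so the 70 do not measure how stable the gene counts are. The 6 imprinted genes gave 2 that passed between strains and 3 between mice of a strain with limma-voom, in place of 5 each. Of all genes 50.4% and 55.5% passed in these limma-voom fits. Within strains 65 genes (0.394% of those tested), 2 of them imprinted genes of the choice, passed in DESeq2, and 3 genes (0.0184%) in edgeR on the 4 strains with Umod alone, in place of 0. Between single-class strains, in place of 770 genes (4.43%), 2 passed with limma-voom (0.0115%), 1377 with no filter on low counts (4.39%), 474 in DESeq2 (2.73%; 205 higher and 269 lower), 0 with 1 value per strain (2105 at an unadjusted p under 0.05) and 0.653% of 17611 genes without libraries with more than 1% of another organ. Without the libraries of the 17 highest numbers in their titles, 942 of 17411 genes passed there, among them 1 of the 6, Peg3. Its estimate of 0.90 changed sign with limma-voom (−0.47), in DESeq2 (−0.11), with 1 value per strain (−0.37), without TAS-J2 (−0.86) and without TAS-J2 and LOX-F4 (−0.84). Igf2 within strains was −0.26 without the strains with Umod. Slc38a4 was −0.37 without libraries with more than 1% of another organ and −0.45 in DESeq2.

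Of the pairs of imprinted genes, 9 passed with no centring over all mice and 7 without libraries with more than 1% of another organ, 3 passed over strain means, 3 over tumours centred on their mouse and 0 over such tumours without the libraries nearer to another strain, in place of 6. In the last 2 settings Igf2 with Plagl1 was −0.079 and −0.078, and Igf2 with Mest was −0.15 in the last. The share of all genes as strong in these settings was not determined, and the cause of these changes was not tested. The alternatives on strains with Umod, on libraries nearer to another strain and on mice LOX-E4, BOON-I2, TAS-J2 and LOX-F4 were chosen after seeing the data. The comparison of mice within strains holds none of those 17 libraries, so that alternative was not run. No paired analysis was possible because the labels give no number that pairs mice of the 2 classes. The depth limits Rtl1 most, with a median of 9 counts per library.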
